A study of Homo sapiens with 6 samples.

Results

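The collagen genes of SUM159 oncospheres were examined with and without ectopic SCGB3A1. They were 43 of 19775 measured genes, each with a single symbol of the collagen form in the array annotation, COL with a type number followed by A with a chain number. Each gene was read by 1 probe set, the one with the highest mean over all 6 arrays. A probe set is a group of short oligonucleotides on the array that read the same transcript. Collagens are the main structural proteins of the extracellular matrix. Alpha chains wind into a helical molecule inside the cell, are secreted, and then build fibrils, sheet-like networks or beaded filaments according to their type. In carcinomas most fibrillar collagen is made by fibroblasts, while basement membrane collagen IV separates epithelium from stroma, and cancer cells with mesenchymal traits can make matrix themselves.

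SUM159 is an established human breast cancer cell line. Cells had been transduced with the lentiviral vector pLVX-puro carrying human SCGB3A1 (SCGB3A1, 3 arrays) or with the empty pLVX-puro vector (control, 3 arrays), and both groups then received puromycin (2 µg/ml) over 7 days to keep transduced cells. They then grew for 5 days on ultra-low attachment plates, from 12500 cells/ml, as oncospheres, which are floating clusters that favour stem cell attributes. The comparison asks how the tumour cells respond to SCGB3A1, a small secreted protein of the secretoglobin family that the study traced to lung endothelium. The labels call the arrays biological replicates but do not say whether they came from separate transductions, and the tests therefore rest on the variation among these 6 arrays, which may be technical.

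The deposited log2 values share nearly the same distribution in all arrays. Control replicate 2 stood apart, with correlations of 0.989 to 0.993 to the other arrays, against 0.993 to 0.996 among the rest. The probe set of SCGB3A1 did not read higher in its own arrays, with 6.74 ± 0.16 in SCGB3A1 arrays and 6.91 ± 0.13 in control arrays (log2, SD, n = 3 each; limma, adjusted p = 0.83). This probe set lay at percentile 46.3 of all probe sets. Whether it reads the sequence in the vector is unknown here, so directions hold for the arrays as labelled. The paper reports a qPCR check of expression in transduced cancer cells, but does not say that it used the RNA of these arrays. The cells had the markers of a mesenchymal-like line, with 6 of 6 (VIM, CD44, AXL, CAV1, ZEB1, SNAI2) above the 90th percentile of all probe sets. The 3 measured of 5 basal markers (KRT5, KRT14, KRT15) also lay above the 90th percentile. Luminal markers had 0 of 6 above the 75th percentile. The fibroblast list had 3 of 6 markers above the 75th percentile, and its mean log2 value ran from 8.17 to 8.23 in SCGB3A1 arrays and from 8.16 to 8.29 in control arrays. Of the endothelial markers 1 of 5, and of the leukocyte markers 0 of 3, lay above the 75th percentile. Basal keratins moved with the groups: the mean log2 value of KRT5, KRT14 and KRT15, the 3 measured of 5 basal markers, was 11.01 to 11.12 in SCGB3A1 arrays and 10.18 to 10.53 in control arrays. The mesenchymal-like list ran the other way, with 6 of 6 fold changes negative and a mean log2 value of 11.89 to 11.98 in SCGB3A1 arrays and 11.98 to 12.12 in control arrays. Within it ZEB1 was lower without overlap (-0.25 ± 0.08, SE; limma, unadjusted p = 0.0078, adjusted p = 0.72). Whether the differences in these lists bear on any collagen value below was not tested. In bulk RNA, fewer cells making a collagen and less collagen RNA per cell cannot be told apart.

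No collagen gene passed an adjusted p of 0.05 between SCGB3A1 and control oncospheres (limma, smallest adjusted p = 0.74), where 10 of 54613 probe sets, or 0.0183%, passed. Among the chosen probe sets, the largest differences were small and ran both ways: COL7A1, the chain of anchoring fibrils, read 0.29 lower on the log2 scale in SCGB3A1 arrays, and COL6A2, a chain of beaded filaments, read 0.18 higher. The other probe set read 0.17 for COL7A1 and -0.01 for COL6A2. Collagen probe sets that were not chosen ran from -0.21 (COL8A1) to 0.34 (COL27A1). By the criteria of the study's signature (a fold change larger than 0.5 on the log2 scale, with an unadjusted p below 0.05 and an adjusted p below 0.25), 0 collagen genes passed, against 0.0607% of all genes. An unadjusted p under 0.05 was reached by 5 of 43 collagen genes, or 11.6%, against 6.82% of all genes. COL7A1, COL13A1, COL8A1 and COL1A1 were lower (4 genes, against 2.89% of all genes that were lower), and COL6A2 was higher (1 gene, against 3.93%). These 5 genes were all among the 22 collagen genes above the 75th percentile of signal. Of all genes above that percentile, 3.59% were lower and 4.32% were higher by the same rule.

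The median collagen gene differed little from the median of all genes. The fold change was negative for 20 and positive for 23, with a median of 0.02 on the log2 scale, against 0.01 for all genes. Arrays of the groups did not overlap for 4 collagen genes that were lower (COL1A1, COL7A1, COL8A1, COL13A1), against 5.24% of all genes, and for 4 that were higher (COL6A2, COL6A5, COL15A1, COL27A1), against 7.09%. The standard errors lay between 0.07 and 0.12. The 95% intervals of the 43 chosen probe sets, each for its own gene, lay between -0.51 and 0.37 (1.42-fold lower and 1.29-fold higher), and 38 of them included 0. Intervals of other probe sets reached further, to 0.53 for COL27A1 and 0.49 for COL3A1. The number of arrays limits this precision, and RMA, the normalization used, compresses differences of dim probe sets.

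**Figure D1:**
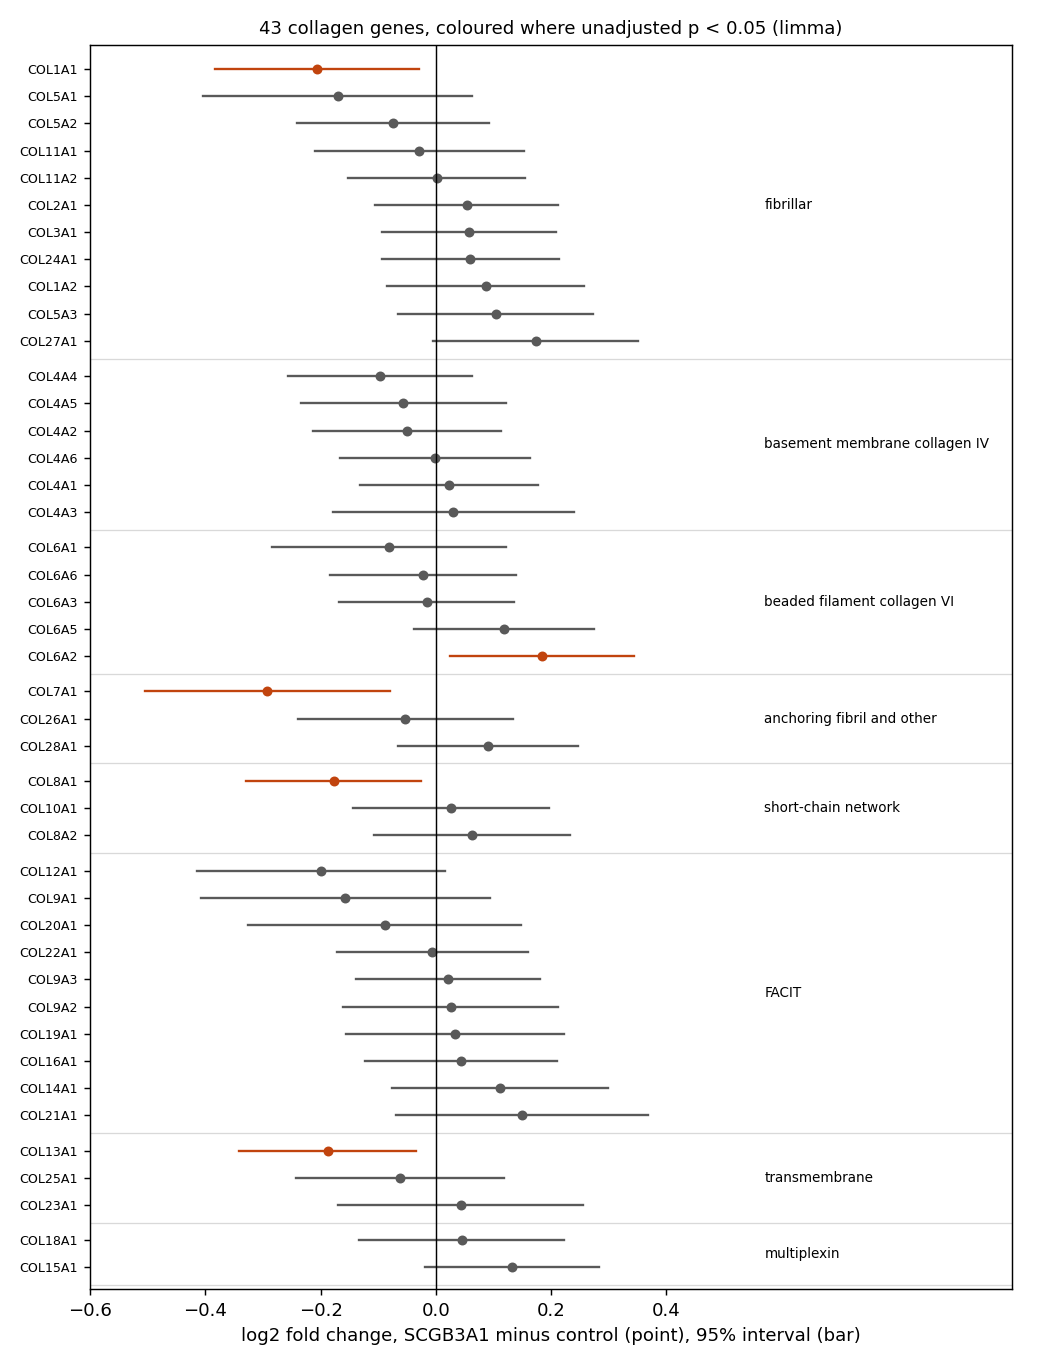
Log2 fold change (SCGB3A1 minus control, horizontal axis) of the 43 collagen genes, grouped by structural class, with 95% intervals from limma; genes with an unadjusted p under 0.05 are coloured. The intervals of 38 genes include 0, and those of COL7A1, COL13A1, COL8A1, COL1A1 (lower) and COL6A2 (higher) do not.

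The signals of the collagen genes spread from the dimmest to the brightest part of the arrays, with many at the bright end. Of the 43 genes, 16 (37.2%) had a probe set above the 90th percentile of all probe sets, against 17.5% of all genes chosen in the same way, and 16 (37.2%) lay below the 50th percentile, against 36% of all genes. The bright genes came from every class except the multiplexins: 4 of 11 fibrillar genes, 4 of 6 collagen IV genes, 3 of 5 collagen VI genes, and COL7A1, COL8A1, COL12A1, COL16A1 and COL13A1. Probe sets differ in how well they bind, so a percentile places a probe set in the range of the array and does not order transcripts by abundance.

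**Figure D2:**
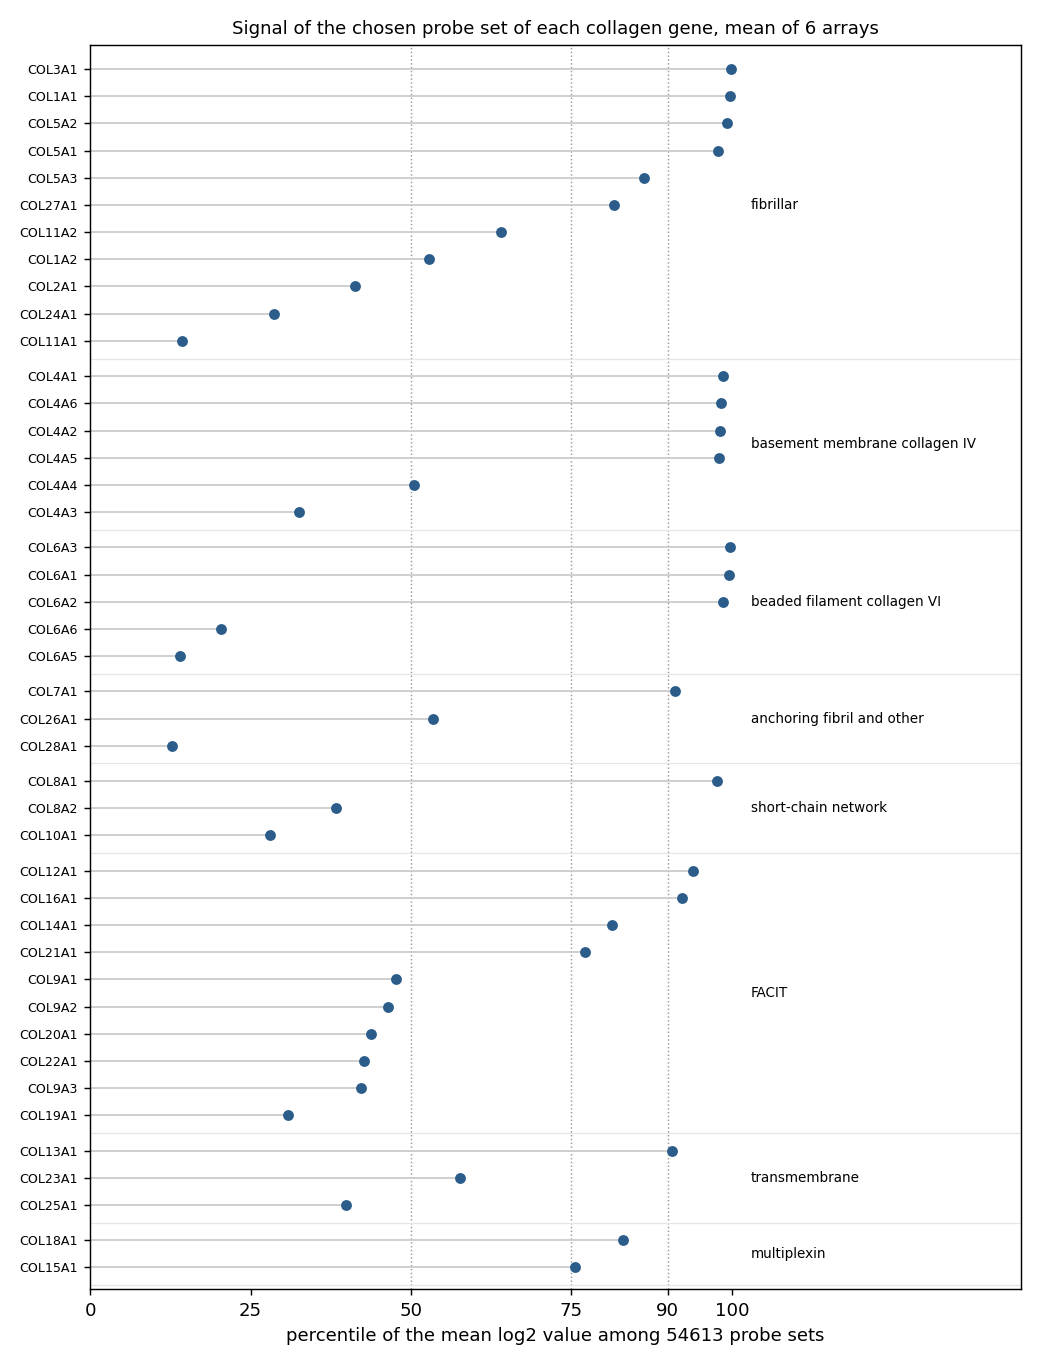
Percentile of the mean log2 value over 6 arrays among 54613 probe sets (horizontal axis) for the chosen probe set of each of the 43 collagen genes, by class; dotted lines mark the 50th, 75th and 90th percentiles. In collagen IV, 4 chains lie at the 98th percentile or above and 2 near or below the 50th.

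Among the fibrillar collagens, which form the banded fibrils of stroma, COL1A1 differed most. COL1A1, the major chain of collagen I, read 13.35, 13.46 and 13.51 in SCGB3A1 arrays and 13.52, 13.74 and 13.67 in control arrays, a difference of -0.21 ± 0.08 (SE; limma, unadjusted p = 0.026, adjusted p = 0.78). The groups did not overlap, although the highest SCGB3A1 array and the lowest control array were almost equal. Control replicate 2 was the highest array, and without it the difference was -0.16 (limma, unadjusted p = 0.088). Its partner chain COL1A2, which joins COL1A1 in the usual collagen I molecule, read 7.07, 6.95 and 7.09 in SCGB3A1 arrays and 7.01, 6.99 and 6.84 in control arrays (0.09 ± 0.08, SE). The groups overlapped for COL1A2, and its probe set sat at percentile 52.9, against 99.7 for COL1A1. Another probe set for COL1A2, at percentile 35.1, did not overlap between the groups, at 6.77, 6.73 and 6.71 in SCGB3A1 arrays and 6.63, 6.40 and 6.38 in control arrays (0.26 ± 0.08, SE; limma, adjusted p = 0.72).

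COL3A1, the chain of collagen III, which is found beside collagen I in pliable tissues, had the highest percentile of the collagens, 99.9. It read 14.20, 14.25 and 14.27 in SCGB3A1 arrays and 14.14, 14.18 and 14.21 in control arrays (0.06 ± 0.07, SE), and the groups overlapped. Collagen V is a minor fibril component that helps start collagen I fibrils. COL5A1 read 11.24, 11.38 and 11.57 in SCGB3A1 arrays and 11.41, 11.78 and 11.51 in control arrays (-0.17 ± 0.11, SE; limma, adjusted p = 0.85), with overlap. Its other probe sets gave 0.01 and -0.15, and the chosen one ran from -0.26 without SCGB3A1 replicate 3 to -0.06 without control replicate 2. COL5A2 read 12.64, 12.64 and 12.71 in SCGB3A1 arrays and 12.68, 12.85 and 12.67 in control arrays, with overlap. The third chain, COL5A3, read 9.32, 9.20 and 9.17 in SCGB3A1 arrays and 9.10, 9.07 and 9.22 in control arrays, also with overlap. COL27A1, a fibrillar chain known from cartilage, did not overlap between the groups, at 8.94, 8.77 and 8.70 in SCGB3A1 arrays and 8.62, 8.57 and 8.70 in control arrays (0.17 ± 0.08, SE; limma, adjusted p = 0.81). SCGB3A1 replicate 3 and control replicate 3 were equal there to 2 decimals. The remaining fibrillar genes (COL2A1 and the collagen XI chains of cartilage, and COL24A1) had signals between percentiles 14.3 and 64.1 and fold changes of -0.03 to 0.06.

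**Figure D3:**
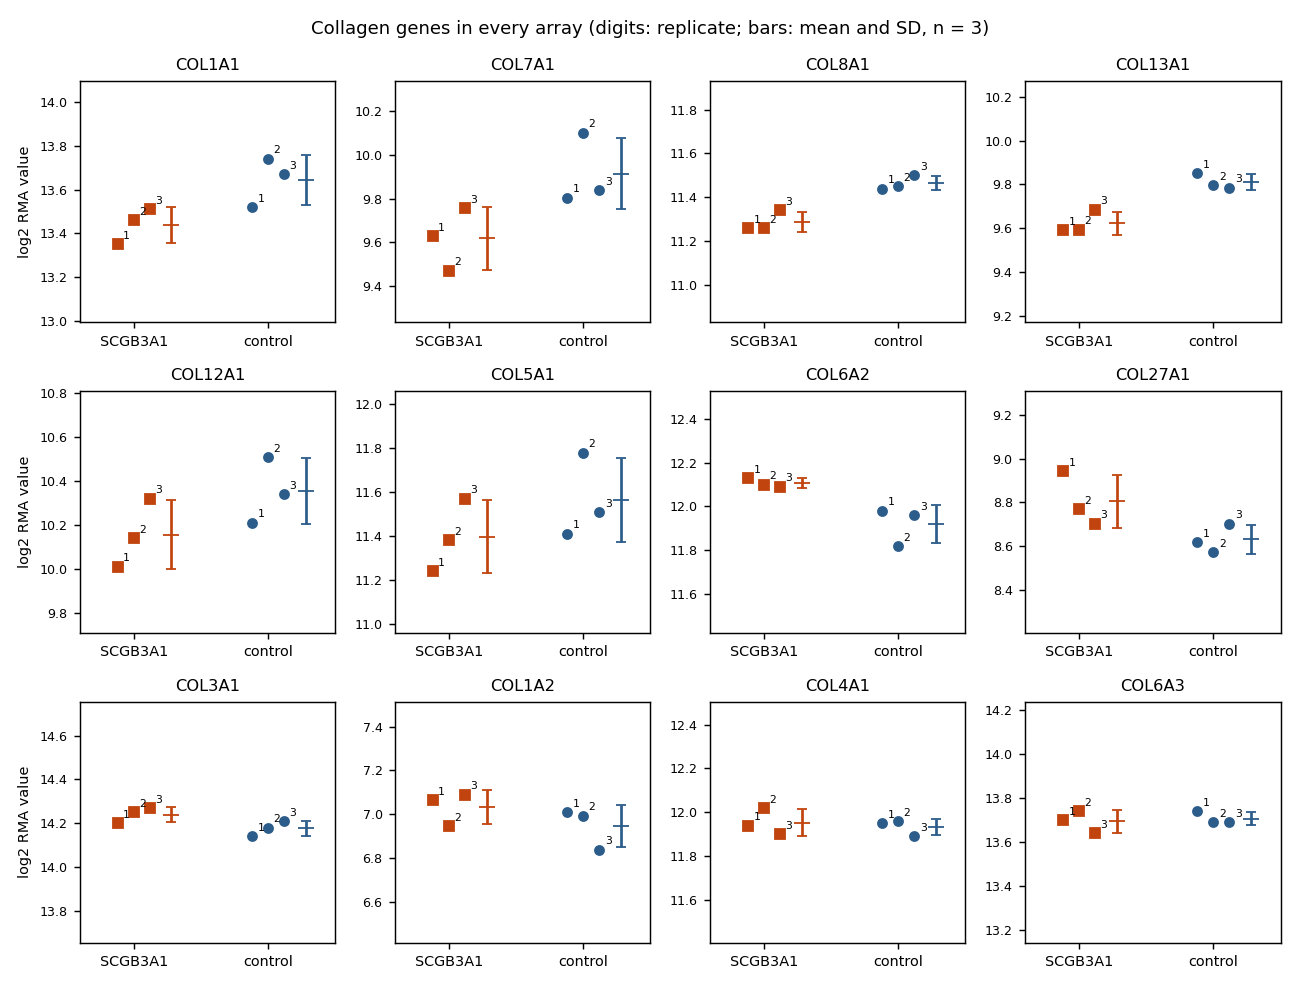
RMA log2 values (vertical axis) of 12 collagen genes in each array, with SCGB3A1 squares to the left of control circles, digits for the replicate, and bars for the mean and SD (n = 3). For COL1A1, COL7A1, COL8A1 and COL13A1 all 3 SCGB3A1 arrays lie below all 3 control arrays, and for COL6A2 and COL27A1 all 3 lie above. For COL27A1 the lowest SCGB3A1 array (8.703) and the highest control array (8.702) are almost equal.

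Collagen IV, the network collagen of basement membranes, was bright in 4 of its 6 chains. By the chosen probe sets the groups overlapped for all 6, with fold changes from -0.10 to 0.03. The genes lie in head-to-head pairs that are read from a shared promoter region in opposite directions, and the signals went by pair. COL4A1 and COL4A2, the chains of the ubiquitous molecule, sat at percentiles 98.6 and 98.2. COL4A5 and COL4A6, chains of more restricted basement membranes, sat at percentiles 98.1 and 98.3. COL4A3 and COL4A4, known from kidney and lung, sat at percentiles 32.6 and 50.5. The stretch that the promoter windows (250 bases before to 50 after the start) of each pair have in common, cut to the bases between the starts, is shown for comparison, from RefSeq on GRCh38.p14, plus strand. Capitals mark matches on either strand to CCAAT, the letters of the CCAAT box, and to GGGCGG, those of the GC box. They lie at chr13:110307158-110307283, chr2:227164374-227164455 and chrX:108439588-108439708.
COL4A1 and COL4A2: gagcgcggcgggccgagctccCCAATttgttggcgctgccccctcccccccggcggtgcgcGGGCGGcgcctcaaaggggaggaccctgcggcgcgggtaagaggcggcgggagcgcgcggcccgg
COL4A3 and COL4A4: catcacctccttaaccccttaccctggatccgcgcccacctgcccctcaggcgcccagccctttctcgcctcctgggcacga
COL4A5 and COL4A6: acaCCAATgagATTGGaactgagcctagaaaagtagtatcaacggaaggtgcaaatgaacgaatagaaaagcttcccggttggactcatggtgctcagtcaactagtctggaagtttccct
The annotated starts are 127 bases apart for COL4A1 and COL4A2, 419 for COL4A3 and COL4A4, and 380 for COL4A5 and COL4A6. The stretch of COL4A1 and COL4A2 holds 1 match to the CCAAT box and 1 to the GC box. The stretch of COL4A5 and COL4A6 holds 2 matches to the CCAAT box, 1 on each strand, and that of COL4A3 and COL4A4 holds no match to either. The stretch printed is 82 bases for COL4A3 and COL4A4 and 121 for COL4A5 and COL4A6, so bases between those starts are left out. Outside the stretch, the COL4A3 window holds 2 matches to the GC box before the COL4A3 start. The COL4A6 window holds 3 matches to the CCAAT box, not all of them in the stretch. These are matches of letters and not sites of a factor.

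COL4A1 read 11.94, 12.02 and 11.90 in SCGB3A1 arrays and 11.95, 11.96 and 11.89 in control arrays. COL4A2 read 11.69, 11.64 and 11.60 in SCGB3A1 arrays and 11.79, 11.61 and 11.69 in control arrays. Both pairs of groups overlapped, and the 95% interval of COL4A1 ran from -0.13 to 0.18 and that of COL4A2 from -0.21 to 0.11. COL4A5 read 11.55, 11.50 and 11.68 in SCGB3A1 arrays and 11.51, 11.71 and 11.68 in control arrays. COL4A6 read 11.83, 11.74 and 11.71 in SCGB3A1 arrays and 11.83, 11.67 and 11.78 in control arrays. These overlapped too. The dim pair read 6.72, 6.65 and 6.36 (COL4A3) and 6.86, 6.81 and 6.97 (COL4A4) in SCGB3A1 arrays, and 6.58, 6.46 and 6.60 (COL4A3) and 7.01, 6.96 and 6.95 (COL4A4) in control arrays, near the median of the array. Another COL4A4 probe set, at percentile 26.75, was lower without overlap (-0.17 ± 0.08, SE, limma, unadjusted p = 0.049, adjusted p = 0.81).

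In collagen VI, whose chains build beaded filaments around cells, only COL6A2 of the 3 bright chains separated the groups by its chosen probe set. COL6A2 read 12.13, 12.10 and 12.09 in SCGB3A1 arrays and 11.98, 11.82 and 11.96 in control arrays, a difference of 0.18 ± 0.07 (SE; limma, unadjusted p = 0.027, adjusted p = 0.78). The SCGB3A1 arrays were close together and all lay above every control. Control replicate 2 was the lowest array, and without it the difference was 0.14 (limma, unadjusted p = 0.098). COL6A1, which assembles with COL6A2, read 13.37, 13.37 and 13.54 in SCGB3A1 arrays and 13.37, 13.69 and 13.46 in control arrays (-0.08 ± 0.09, SE). COL6A3, the large chain of the same molecule, read 13.70, 13.74 and 13.64 in SCGB3A1 arrays and 13.74, 13.69 and 13.69 in control arrays (-0.02 ± 0.07, SE). Both overlapped between the groups by these probe sets, and whether COL6A2 differed from its partner chains was not tested. The chains that can stand in for COL6A3 were dim. COL6A5 read 6.36, 6.29 and 6.31 in SCGB3A1 arrays and 6.22, 6.12 and 6.25 in control arrays, without overlap but at the 14th percentile (0.12 ± 0.07, SE; limma, adjusted p = 0.85). COL6A6 read 6.40, 6.29 and 6.38 in SCGB3A1 arrays and 6.46, 6.33 and 6.34 in control arrays, with overlap.

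COL7A1, which anchors the epidermal basement membrane to the dermis, had the lowest unadjusted p of the 43 genes. It read 9.63, 9.47 and 9.76 in SCGB3A1 arrays and 9.80, 10.10 and 9.84 in control arrays, with means of 9.62 ± 0.14 in SCGB3A1 arrays and 9.91 ± 0.16 in control arrays (SD, n = 3 each). The difference was -0.29 ± 0.10 (SE; limma, unadjusted p = 0.011, adjusted p = 0.74). The groups did not overlap, and control replicate 2, the array that stood apart, was the highest. Without it the difference was -0.20 (limma, adjusted p = 0.79). The other COL7A1 probe set read 0.17 ± 0.08 (SE), higher without overlap, and the other COL6A2 probe set -0.01 ± 0.07 (SE). By their chosen probe sets, COL7A1 read lowest and COL6A2 highest relative to control. The bases before their starts are shown from RefSeq on GRCh38.p14 (chr3:48595330-48595579, minus strand, and chr21:46097862-46098111, plus strand), 5′ to 3′ in the direction of the gene. Capitals mark matches on either strand to the same boxes and to TATAAA, the letters of the TATA box.
COL7A1: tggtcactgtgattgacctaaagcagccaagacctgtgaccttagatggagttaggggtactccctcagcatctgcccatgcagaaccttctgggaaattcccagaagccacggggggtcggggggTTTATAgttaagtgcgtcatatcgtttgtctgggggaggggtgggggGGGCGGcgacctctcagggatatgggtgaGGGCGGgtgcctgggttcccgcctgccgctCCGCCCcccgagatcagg
COL6A2: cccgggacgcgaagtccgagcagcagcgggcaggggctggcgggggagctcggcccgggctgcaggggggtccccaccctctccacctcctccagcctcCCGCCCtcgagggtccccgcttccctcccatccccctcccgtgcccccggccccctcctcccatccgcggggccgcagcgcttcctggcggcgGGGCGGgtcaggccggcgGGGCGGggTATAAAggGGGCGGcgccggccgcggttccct
Both hold 1 match to the TATA box, and the GC box matches 3 times for COL7A1 and 4 times for COL6A2. Of the collagen genes, 31 were matched to a RefSeq promoter window of 300 bases. The TATA box letters were in 12.9% of these, against 12% of all 27305 windows. Those of the CCAAT box were in 29%, against 35.7%, and those of the GC box in 58.1%, against 44.6%. None of the 3 motifs contains another, and a match is a description only.

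COL8A1, a short-chain network collagen of vessel walls and the cornea, read 11.26, 11.26 and 11.34 in SCGB3A1 arrays and 11.44, 11.45 and 11.50 in control arrays (-0.18 ± 0.07, SE; limma, unadjusted p = 0.026, adjusted p = 0.78). The arrays of each group were tight and did not overlap. COL13A1, a transmembrane collagen of adhesive cell contacts, read 9.59, 9.59 and 9.68 in SCGB3A1 arrays and 9.85, 9.80 and 9.79 in control arrays (-0.19 ± 0.07, SE; limma, unadjusted p = 0.021, adjusted p = 0.78). These also did not overlap. The other short-chain genes, COL8A2 and COL10A1 of hypertrophic cartilage, and the other transmembrane genes, COL23A1 and COL25A1, lay between percentiles 28.1 and 57.6, with fold changes from -0.06 to 0.06.

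FACIT collagens sit on the surface of fibrils and link them to other matrix. COL12A1, which coats collagen I fibrils, read 10.01, 10.14 and 10.32 in SCGB3A1 arrays and 10.21, 10.51 and 10.34 in control arrays (-0.20 ± 0.10, SE; limma, unadjusted p = 0.066, adjusted p = 0.82). The groups overlapped, and the difference was -0.28 with SCGB3A1 replicate 3 left out and -0.12 with control replicate 2 left out. COL16A1, a FACIT chain found near cells, read 9.91, 9.97 and 10.03 in SCGB3A1 arrays and 10.03, 9.84 and 9.91 in control arrays, with overlap. The other 8 FACIT genes ran from percentile 30.9 to 81.3, and no FACIT gene had an unadjusted p under 0.05 by its chosen probe set. COL9A1, a cartilage chain, read lowest among those 8 (-0.16 ± 0.12, SE) and COL21A1 highest (0.15 ± 0.10, SE). Both rested on single arrays: COL9A1 ran from -0.26 without SCGB3A1 replicate 1 to -0.04 without control replicate 2, and COL21A1 was 0.07 when SCGB3A1 replicate 3 was left out and 0.28 when replicate 1 was. The multiplexins are basement membrane collagens that carry sugar chains and release fragments such as endostatin. COL15A1 read 8.27, 8.25 and 8.31 in SCGB3A1 arrays and 8.11, 8.13 and 8.19 in control arrays, without overlap (0.13 ± 0.07, SE; limma, unadjusted p = 0.079, adjusted p = 0.82). COL18A1, the source of endostatin, read 8.73, 8.97 and 8.91 in SCGB3A1 arrays and 8.89, 8.79 and 8.78 in control arrays, with overlap. COL26A1 and COL28A1, outside the other classes, had fold changes of -0.05 and 0.09.

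The array holds 112 probe sets for these 43 genes, and those of a gene often disagreed. Of 35 genes with several probe sets, 24 had fold changes of both signs and 11 of 1 sign. An unadjusted p under 0.05 was found for 14 of 112 collagen probe sets, or 12.5%, against 6.2% of all probe sets, 7 lower and 7 higher, and the smallest adjusted p was 0.55. COL7A1 had 2 probe sets with opposite results. The other one read 9.69, 9.71 and 9.83 in SCGB3A1 arrays and 9.51, 9.56 and 9.65 in control arrays, higher without overlap (0.17 ± 0.08, SE; limma, unadjusted p = 0.043, adjusted p = 0.80). The log2 difference between both COL7A1 probe sets within an array was -0.06, -0.23 and -0.07 in SCGB3A1 arrays and 0.30, 0.53 and 0.19 in control arrays. This is a description with no test, since the probe sets are shown for their opposite directions.

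Other genes varied in how far their probe sets went together. All 3 probe sets of COL13A1 were negative (-0.20 to -0.17), as were 4 of 5 for COL1A1, with 0.04 for the exception. The COL13A1 probe sets not chosen overlapped between the groups. In both, control replicate 2 stood above the other controls, at 8.435 against 7.922 and 7.954, and at 8.264 against 7.948 and 7.831. For COL8A1, another probe set read -0.21 ± 0.09 (SE) and a dim one, at percentile 15.3, 0.01. COL6A2 was higher by 1 probe set only, since the other, at percentile 90.7, read -0.01 ± 0.07 (SE). The smallest p of any collagen probe set was that of a COL3A1 probe set that the choice by signal did not take, with 9.29, 9.33 and 9.17 in SCGB3A1 arrays and 8.92, 8.88 and 9.04 in control arrays (0.32 ± 0.08, SE; limma, unadjusted p = 0.0015, adjusted p = 0.55). The 2 brightest COL3A1 probe sets read 0.06 and 0.04. Likewise 1 probe set of COL27A1 read 7.89, 7.87 and 7.99 in SCGB3A1 arrays and 7.68, 7.41 and 7.63 in control arrays (0.34 ± 0.09, SE; limma, adjusted p = 0.59), and 4 of its 5 probe sets were positive. For COL6A1, 8 probe sets ran from -0.17 to 0.18. The highest of them, at percentile 94.2, separated the groups, with 10.40, 10.36 and 10.42 in SCGB3A1 arrays and 10.25, 10.21 and 10.18 in control arrays (limma, unadjusted p = 0.022, adjusted p = 0.78). For COL12A1, 4 of 5 probe sets were negative, and 1 of them was lower without overlap, with 7.22, 7.18 and 7.20 in SCGB3A1 arrays and 7.49, 7.30 and 7.45 in control arrays (-0.21 ± 0.08, SE; limma, unadjusted p = 0.016, adjusted p = 0.76).

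**Figure D4:**
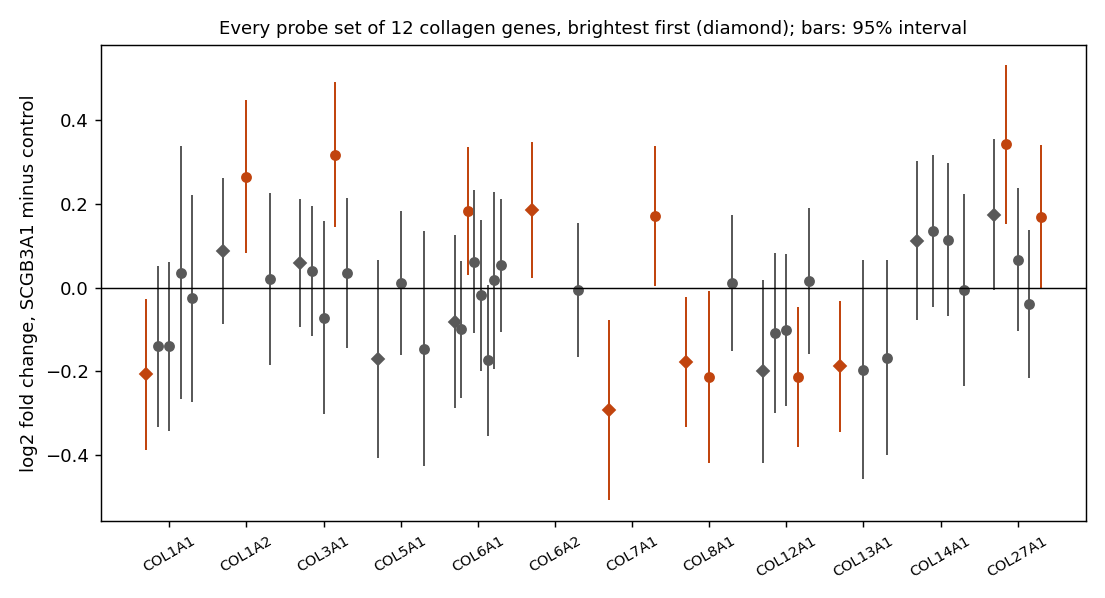
Log2 fold change (SCGB3A1 minus control, vertical axis) of every probe set of 12 collagen genes, from bright to dim within a gene, with 95% intervals; the diamond is the probe set with the highest mean, and an unadjusted p under 0.05 is coloured. The 2 probe sets of COL7A1 lie on opposite sides of 0, at -0.29 and 0.17.

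The count of 5 collagen genes with an unadjusted p under 0.05 depended on single arrays. It was 3, 1 and 8 without SCGB3A1 replicates 1, 2 and 3, and 5, 3 and 4 without control replicates 1, 2 and 3. The share of all genes under these settings and those below is not given. Whether the collagen count moved more than that share was therefore not tested. Without SCGB3A1 replicate 2 the 1 gene left was COL1A1 (-0.22). An unadjusted p under 0.05 was lost without 1 array for COL7A1 (SCGB3A1 replicate 2) and without any of 3 arrays for COL1A1 (SCGB3A1 replicate 1, control replicates 2 and 3), COL6A2 (SCGB3A1 replicates 1 and 2, control replicate 2), COL8A1 (SCGB3A1 replicates 1 and 2, control replicate 3) and COL13A1 (SCGB3A1 replicates 1 and 2, control replicate 1). With all probe sets of a gene averaged the count was 2, COL15A1 (0.13) and COL27A1 (0.14), both higher, and none of the 5 genes was among them. The 5 genes kept their sign there, with unadjusted p from 0.051 (COL13A1) to 0.40 (COL7A1) by limma. Without probe sets whose design can read several transcripts the count was 3, COL7A1 (-0.29), COL8A1 (-0.18) and COL3A1 (0.32). Only 37 collagen genes kept a probe set there, and COL1A1 and COL13A1 kept none, so they could not be counted. No collagen gene passed adjusted p 0.05 in these fits or in any other alternative run.

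Around the collagen genes, 90 of 92 genes of 8 lists were measured, from chain modification to cleavage. None passed adjusted p 0.05 (limma, smallest adjusted p = 0.32), and 11 (12.2%) had an unadjusted p under 0.05, against 6.82% of all genes. Of these, 5 were lower and 6 higher (2.89% and 3.93% of all genes), and the median fold change of the 90 genes was 0.02. In the list of fibril binding, 4 of 14 genes were higher by that rule, against 3.93% of all genes, and 0 lower, against 2.89%. LUM (lumican), a small leucine-rich proteoglycan that spaces fibrils, read 8.33, 8.59 and 8.76 in SCGB3A1 arrays and 7.96, 8.18 and 7.98 in control arrays (0.52 ± 0.11, SE; limma, adjusted p = 0.32). DCN (decorin), which binds collagen I, read 9.03, 8.83 and 8.82 in SCGB3A1 arrays and 8.58, 8.41 and 8.48 in control arrays (0.40 ± 0.08, SE). In both, every SCGB3A1 array was above every control. ASPN (asporin), a relative of decorin, differed by 0.32 ± 0.07 (SE) and POSTN (periostin), a matricellular protein, by 0.21 ± 0.07 (SE), also without overlap. Without probe sets whose design can read several transcripts, LUM read -0.11 and DCN 0.04, while ASPN stayed at 0.32. POSTN was also read by such a probe set. With these left out, 2 genes of all lists were higher by the same rule, ASPN and PLOD1, and POSTN was not among them.

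Among enzymes that modify chains in the endoplasmic reticulum, 1 of 13 was higher, against 3.93% of all genes, and 0 lower, against 2.89%. This was PLOD1, a lysyl hydroxylase, at 10.01, 9.94 and 9.92 in SCGB3A1 arrays and 9.81, 9.59 and 9.83 in control arrays (0.22 ± 0.08, SE; limma, adjusted p = 0.78). Of 11 genes of folding and secretion, 1 was higher, against 3.93% of all genes, and 0 lower, against 2.89%. The higher gene was FKBP10, a prolyl isomerase that acts on procollagen (0.21 ± 0.08, SE, limma, adjusted p = 0.77). No gene of the remaining lists in this paragraph had an unadjusted p under 0.05, against 6.82% of all genes. The list of procollagen processing had 0 of 10, with BMP1, which cleaves the C-propeptide, at 0.13 ± 0.07 (SE) and ADAMTS2, which cleaves the N-propeptide, at 0.11 ± 0.08 (SE). Crosslinking had 0 of 5, with LOX, a lysyl oxidase, at -0.18 ± 0.10 (SE) and LOXL1 at 0.10 ± 0.08 (SE). Collagen receptors had 0 of 10, with DDR2, a receptor tyrosine kinase for fibrillar collagen, at 0.13 ± 0.08 (SE) and ITGA1, an integrin chain that binds collagen IV, at 0.09 ± 0.07 (SE).

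Of 11 genes of collagen cleavage, 2 were lower, against 2.89% of all genes, and 0 higher, against 3.93%. MMP2, a gelatinase that also cleaves collagen IV, read 11.46, 11.60 and 11.44 in SCGB3A1 arrays and 11.74, 11.67 and 11.61 in control arrays (-0.17 ± 0.08, SE; limma, adjusted p = 0.80). MMP9, the other gelatinase, was near the array median, at 6.88, 6.97 and 6.87 in SCGB3A1 arrays and 7.24, 6.98 and 7.17 in control arrays (-0.23 ± 0.08, SE). Of 16 regulators of collagen genes, 3 were lower, against 2.89% of all genes and 3.59% of those above the 75th percentile, and 0 were higher. TGFBR1, a receptor for TGF-beta, which induces collagen genes in fibroblasts, read 10.60, 10.74 and 10.54 in SCGB3A1 arrays and 10.85, 10.93 and 10.87 in control arrays, without overlap (-0.25 ± 0.08, SE; limma, adjusted p = 0.72). SMAD7, an inhibitor of the same pathway, differed by -0.19 ± 0.08 (SE) and SP3, a factor that binds GC-rich promoters, by -0.23 ± 0.09 (SE). The SP3 groups overlapped. TGFBR1 and MMP9 were read by probe sets whose design can read several transcripts. With such probe sets left out, 3 genes of all lists were lower by the same rule, MMP2, SMAD7 and SP3.

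**Figure D5:**
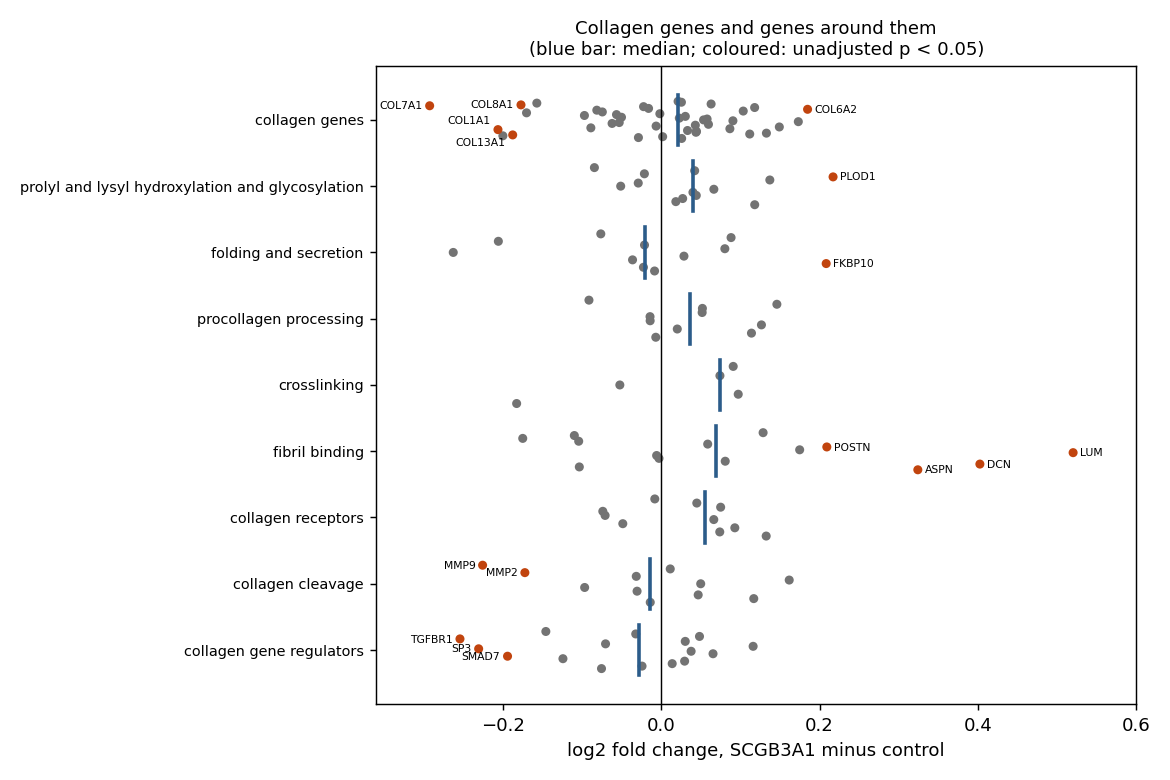
Log2 fold change (SCGB3A1 minus control, horizontal axis) of the 43 collagen genes and of 90 genes in 8 lists, 1 probe set per gene; blue bars are medians and genes with an unadjusted p under 0.05 are coloured and named. In fibril binding 4 of 14 genes are higher (LUM, DCN, ASPN, POSTN), and in the regulators 3 of 16 are lower.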

How the data were processed

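RNA of 6 arrays (Affymetrix Human Genome U133 Plus 2.0, 100 ng of RNA each) was compared, 3 SCGB3A1 and 3 control. The deposited log2 values, which ran from 5.67 to 14.66, had been made by the authors with robust multiarray average (RMA). RMA gives all arrays 1 distribution, so a change in total RNA cannot be seen, and it compresses differences of dim probe sets. No detection calls were used. Every column of the table was used.

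Of 54675 probe sets, 62 controls were set aside. Symbols came from GEO's platform annotation, where 41091 of the tested probe sets had 1 symbol, 1801 had several and 11721 had none. A RefSeq gene table changed 0 symbols. One collagen gene is not reported here.

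All 54613 probe sets were fitted with limma 3.58.1 in R 4.3.3 (lmFit and eBayes, two-sided), as in the study's empirical Bayes comparison, with Benjamini-Hochberg adjustment over all of them. The fit was tested on simulated data. Each gene was read by its probe set with the highest mean. Values by array are given for collagen genes with unadjusted p under 0.05, above the 90th percentile, or of collagens I, III, IV, V, VI and VII, and others were chosen after their values were seen. Genes of other lists are named where unadjusted p was under 0.05, up to 4 a list, otherwise the 2 with the smallest p. The members and lists were chosen with earlier results of these data known. For RNA quality, the GAPDH control probe sets of the 3′ end minus the 5′ end gave -0.13 ± 0.03 in SCGB3A1 arrays and -0.10 ± 0.05 in control arrays (SD, n = 3 each; exact permutation test, two-sided, p = 0.5, where 0.1 is the smallest possible).

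Alternatives were centring on the array median, an intensity trend, weights for arrays, the replicate number as a block, leaving out each array, leaving out dim probe sets, averaging a gene's probe sets, probe sets with IDs ending in _x_at or _s_at left out, adjustment over 1 probe set per gene, and the signature thresholds. COLGALT2 and DDR1 of the lists, and some markers, were not analysed here.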

Additional observations from a re-analysis of the deposited data

How the results depend on the processing

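No collagen gene and no gene of the lists around them passed adjusted p 0.05 under any alternative that was run. The median fold change of the collagen genes moved from 0.0213 to 0.0103 with array weights, -0.00175 without dim probe sets and 0.00178 without _x_at and _s_at probe sets, and it ran from -0.0226 to 0.0245 with each array left out. The count of collagen genes with an unadjusted p under 0.05 was 2 with the mean of all probe sets. It was 0 by the signature thresholds and 1 to 8 with each array left out. Without _x_at and _s_at probe sets it was 3 of the 37 genes that kept a probe set. For the genes around them the median was 0.00153 with the mean of all probe sets. Their count of 11 was 7 to 12 with each array left out. Without _x_at and _s_at probe sets it was 5 of the 74 genes that kept a probe set. Apart from the signature thresholds, the share of all genes under the alternatives is not given beside these counts. Of 815 comparisons of a single gene under an alternative, 48 turned the sign, 33 of them with an array left out.

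Signs turned with the mean of all probe sets for COL4A3 (-0.00837), COL5A2 (0.00759), COL6A6 (0.0698), COL11A2 (-0.00978), COL22A1 (0.0427), COL25A1 (0.00276), COL26A1 (0.0408), ITGA1 (-0.0779) and SP3 (0.000644). They turned without _x_at and _s_at probe sets for COL5A1 (0.0112), COL6A2 (-0.00541), BMP1 (-0.144) and LUM (-0.112), and with array weights for COL22A1 (0.0284) and COL23A1 (-0.00127). The first 2 of these settings read other probe sets by construction. For the others the cause was not tested.

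With each array left out, the sign also turned within these ranges: COL4A1 -0.0107 to 0.0497, COL4A3 -0.0416 to 0.14, COL4A6 -0.0468 to 0.0348, COL6A1 -0.152 to 0.0125, COL6A3 -0.0375 to 0.0112, COL6A6 -0.0476 to 0.0197, COL9A2 -0.0435 to 0.085, COL9A3 -0.0226 to 0.062, COL10A1 -0.0303 to 0.0638, COL11A1 -0.0947 to 0.0122, COL11A2 -0.0253 to 0.0352, COL18A1 -0.00667 to 0.115, COL19A1 -0.0327 to 0.111, COL20A1 -0.198 to 0.0083, COL22A1 -0.0516 to 0.0331, COL23A1 -0.0538 to 0.122 and COL26A1 -0.0967 to 0.0329.

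Deviations of same-numbered arrays from their group means correlated at 0.145, -0.144 and -0.0871. Differently numbered arrays were not compared, so these values cannot decide whether the replicate numbers pair the arrays. With the replicate number as a block, 6 collagen genes had an unadjusted p under 0.05, 5 lower and 1 higher, the medians were 0.0213 and 0.0194, 10 genes of the lists were counted, and SCGB3A1 read -0.169 (limma, adjusted p = 0.87).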
